A study of Mus musculus with 9 samples.

Results

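The nuclear-encoded subunits of oxidative phosphorylation were examined in AML12 cells, a mouse hepatocyte line. Members were the protein-coding genes listed for both comparisons whose GENCODE M1 symbol starts with Ndufa, Ndufb, Ndufc, Ndufs, Ndufv, Uqcr, Cox4 to Cox8 or Atp5, or is one of Sdha, Sdhb, Sdhc, Sdhd and Cyc1. The rule found 84 genes among the 13259 genes listed in both tables, of which 12505 are protein-coding. Of the 84 genes, 36 code for complex I, 4 for complex II, 9 for complex III, 13 for complex IV and 15 for complex V. Cox7a2l, a relative of subunit VIIa that joins complexes into supercomplexes, is counted with complex IV and with the subunits throughout. The other 7 share a prefix with the subunits without being subunits. They are the complex I assembly factors Ndufaf1, Ndufaf2, Ndufaf3 and Ndufaf4, the genes Atp5s and Atp5sl, named after ATP synthase, and Cox4nb. Cox4nb, also named Emc8, belongs to a complex of the endoplasmic reticulum membrane.

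The 9 libraries form 3 groups of 3. One group is labelled control, and the others were infected for 5 days with lentivirus carrying shRNA 1 or shRNA 2, which target Srrm2, a scaffold protein of nuclear speckles. All groups share the line, derived from hepatocytes of a mouse transgenic for TGF alpha, and a medium with dexamethasone. One table covers the control and shRNA 1 libraries and the other the control and shRNA 2 libraries. That all 3 control libraries enter both tables was assumed from the design. The labels of control replicates 2 and 3 name the shRNA 1 table and tables of other hairpins, but not the shRNA 2 table. The authors describe only 2 hairpins against mouse Srrm2, and the 9 libraries include no other hairpin. The pooled means cannot show which libraries they hold. The value used is the mean normalized read count of a gene over the libraries of a table, taken to be 6, which pools control with knockdown cells, so levels carry no error over libraries, and no effect of the knockdown on a member was estimated.

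Oxidative phosphorylation takes place in the inner mitochondrial membrane. Complexes I and II pass electrons from NADH and succinate to ubiquinone, complex III passes them on to cytochrome c, and complex IV reduces oxygen, while complexes I, III and IV pump protons that drive the ATP synthase, complex V. Hepatocytes depend on this pathway for gluconeogenesis, urea synthesis and the oxidation of fatty acids, and most subunits are coded in the nucleus and imported.

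The cell type was checked against marker genes. All 9 hepatocyte genes on the marker list had a value, from 39.4 normalized counts for Apoa1 to 20192 for Apob in the shRNA 1 table, and Alb, coding for albumin, stood at 2151. Among 5 genes of other liver cells, Vim stood at 4378 and Krt19, a keratin of bile duct cells, at 2851, whereas Col1a1 stood at 3.85 and Ptprc, the leukocyte antigen CD45, at 5.30. No value for Pecam1 was analysed here. These counts are not scaled for length. Per kilobase of the longest coding transcript, the hepatocyte genes ranged from 38.1 for Apoa1 to 7034 for Krt18, with Alb at 1053. On that scale Vim stood at 1996 and Krt19 at 1809. Srrm2 itself stood at 3428 and 3759 normalized counts in the shRNA 1 and shRNA 2 tables, and a mean that includes the control libraries cannot check its knockdown. The tables hold 13424 and 13478 genes, and their means sum to 6144608 and 6393456 normalized counts.

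The c subunit of ATP synthase, which forms the rotating ring in the membrane, shows how closely members can resemble each other. It is coded by 3 genes, Atp5g1 on chromosome 11, Atp5g2 on chromosome 15 and Atp5g3 on chromosome 2. Their last 75 codons, which code for the mature protein, are printed because they code for the same residues with different bases. Sequences are the coding strand of GENCODE M1, 5′ to 3′, and capitals mark the positions at which the 3 genes do not all have the same base.
Atp5g1: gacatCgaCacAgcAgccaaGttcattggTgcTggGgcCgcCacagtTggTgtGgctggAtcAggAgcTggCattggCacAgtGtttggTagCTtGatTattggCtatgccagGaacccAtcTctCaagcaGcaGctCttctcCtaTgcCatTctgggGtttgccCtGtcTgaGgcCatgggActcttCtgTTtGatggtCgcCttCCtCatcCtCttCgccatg
Atp5g2: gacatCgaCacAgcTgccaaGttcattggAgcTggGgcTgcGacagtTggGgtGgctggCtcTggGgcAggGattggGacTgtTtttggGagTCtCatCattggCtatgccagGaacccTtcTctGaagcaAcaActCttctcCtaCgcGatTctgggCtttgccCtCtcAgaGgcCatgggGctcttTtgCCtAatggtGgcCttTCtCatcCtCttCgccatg
Atp5g3: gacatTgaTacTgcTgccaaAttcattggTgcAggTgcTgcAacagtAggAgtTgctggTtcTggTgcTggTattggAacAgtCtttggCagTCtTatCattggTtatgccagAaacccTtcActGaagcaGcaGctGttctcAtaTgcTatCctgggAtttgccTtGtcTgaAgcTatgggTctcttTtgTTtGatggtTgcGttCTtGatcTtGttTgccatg

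Of the 225 bases, 57 differed among the 3 genes and 168 were shared. At 52 of the 57 positions the difference fell on the third base of a codon, and none of the 75 encoded residues differed. Atp5g1 and Atp5g2 were the closest pair, with 84.9% identical bases, against 80.0% for Atp5g1 and Atp5g3 and 78.7% for Atp5g2 and Atp5g3. The parts before these codons, which code for the mitochondrial targeting peptide, were less alike in their residues. Over each alignment, gap positions included, 40.0%, 45.1% and 41.7% of positions held identical residues for the same pairs.

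All 3 genes were expressed. Atp5g2 had the highest pooled mean, 494 normalized counts in the shRNA 1 table and 553 in the shRNA 2 table. Atp5g1 had 391 and 414, and Atp5g3 had 354 and 381. The highest and lowest of the 3 means thus differed 1.39-fold in the shRNA 1 table. Per kilobase of the longest coding transcript, Atp5g2 stood at 764, Atp5g3 at 490 and Atp5g1 at 82.9, a 9.21-fold range, since the longest coding transcript of Atp5g1 in GENCODE M1 measures 4715 bases against 647 for Atp5g2. With the length of the coding sequence in place of the transcript, the range was 1.35-fold. Which transcript the cells used was not tested. Atp5g1 and Atp5g2 also have near-identical copies elsewhere in the genome that cover the whole coding sequence, and reads that fit such a copy can be lost when only uniquely mapped reads are kept.

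Levels of different genes were compared per kilobase, as the pooled mean divided by the length of the longest coding transcript. The median over the 84 members was 246 normalized counts per kilobase in the shRNA 1 table, at the 86.9th percentile of all protein-coding genes, whose median was 60.8. Here and below, all protein-coding genes are the 12504 that are listed in both tables and have a coding transcript. Of the 77 subunit genes, 71 stood above the median of these genes, and none of the 7 others did. The medians ranked complex I lowest at 157, followed by complex II at 276, complex V at 373, complex III at 410 and complex IV at 485. This order was the same in the shRNA 2 table, with the union of exons as length, and without members that have copies elsewhere, although the ranges of the complexes overlapped. The medians themselves moved by over 1.5-fold in 4 cases. With the union of exons as length, complex II stood at 184, complex III at 264 and complex V at 222, and without members that have copies, complex IV stood at 817.

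**Figure D1:**
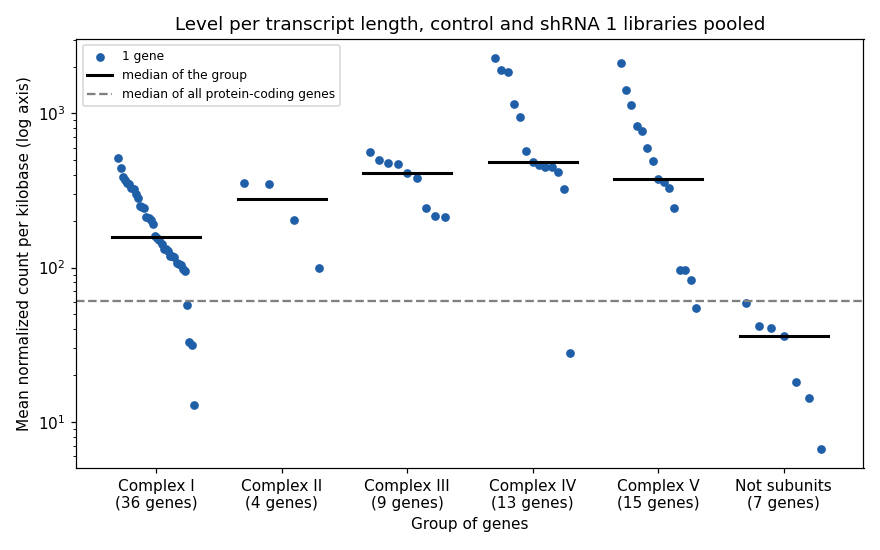
Mean normalized count per kilobase of the longest coding transcript in the pooled control and shRNA 1 libraries, on a log axis, by complex. Each point is a gene, the bar the median of the group and the dashed line the median of all protein-coding genes, 60.8; the 7 genes that are not subunits all lie under it, and complexes IV and V reach highest, to 2271 for Cox8a and 2128 for Atp5b.

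The members summed to 33905 normalized counts in the shRNA 1 table and 35343 in the shRNA 2 table, 0.552% and 0.553% of all normalized counts. The 5 members with the highest pooled means, which are not scaled for length, made up 33.6% and 32.8% of those sums. They were Atp5b, Atp5a1, Cox4i1, Cox8a and Sdha, which were also the only members with a pooled mean above 1000 in the shRNA 1 table. At the other end, 19 members had a pooled mean under 100 in that table.

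In complex I, the entry point for electrons from NADH, levels spanned 39.9-fold. The highest was Ndufb9, an accessory subunit of the membrane arm, with 511 per kilobase and pooled means of 333 and 342 normalized counts in the shRNA 1 and shRNA 2 tables. The lowest was Ndufb2, another membrane arm subunit, with 12.8 per kilobase and pooled means of 55.9 and 66.8, measured over a longest coding transcript of 4371 bases. Ndufv1, which binds NADH and the flavin cofactor, stood at 369 per kilobase (614 and 679 normalized counts), and Ndufs1, the largest iron-sulfur subunit, at 191 (556 and 607).

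By name group, the median was 248 per kilobase for the 13 Ndufa genes (Ndufab1 counted with them), 212 for the 3 Ndufv genes, 200 for the 8 Ndufs genes and 125 for the 10 Ndufb genes. The iron-sulfur and flavin proteins that carry electrons are among the Ndufs and Ndufv genes, but not every gene of these groups codes for one. The other names mark accessory subunits, and Ndufc1 and Ndufc2 were left out of the name groups. Of the 9 complex I genes with a pooled mean under 100 in the shRNA 1 table, Ndufc1 was lowest at 39.3, followed by Ndufa5 and Ndufb2. Ndufs5, Ndufb7, Ndufb10, Ndufb6, Ndufa11 and Ndufb4 lay between 70.6 and 92.4. Ndufb8 stood at 228 and 249 normalized counts. A second GENCODE M1 model of that name, for which no value was used here, overlaps it on chromosome 19 (mm9, 44618212 to 44627321 against 44623062 to 44629930, both on the minus strand). Reads over the overlap can fit both models, and how they were counted is not known here.

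Complex II, which is also succinate dehydrogenase of the citric acid cycle, has no subunit coded in mitochondrial DNA. Its 4 genes spanned only 3.57-fold per kilobase. Sdha, the flavoprotein, had 354 per kilobase and pooled means of 1025 and 1046. Sdhd and Sdhc, the membrane anchors, had 349 and 99.0 per kilobase, with pooled means of 449 and 500.4 for Sdhd and of 314 and 345 for Sdhc. Sdhb, the iron-sulfur subunit, had 204 per kilobase and pooled means of 233 and 270.4.

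Complex III was the narrowest, with 2.65-fold between Uqcr10 at 562 per kilobase and Uqcrq at 212, both small subunits. Uqcrc1 and Uqcrc2, the core proteins on the matrix side, were close to each other at 472 and 478. Uqcrfs1, the Rieske iron-sulfur protein, stood at 243 (332 and 329 normalized counts), and Cyc1, cytochrome c1, at 215 (257 and 266). These electron-carrying subunits lay in the lower part of the range of their complex.

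Complex IV held both the highest and one of the lowest subunit levels, an 80.8-fold range. Cox8a, the smallest subunit, stood at 2271 per kilobase with pooled means of 1238 and 1263. Cox6b1, which faces the intermembrane space, stood at 1923 (971 and 1025) and Cox4i1, the ubiquitous form of subunit IV, at 1860 (1263 and 1310). Ndufa4, named for complex I but now counted as a complex IV subunit, stood at 1149 (565 and 585). Cox7b, a small membrane subunit, followed at 952 (953 and 1015).

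The low value was Cox7a1, the form of subunit VIIa typical of heart and skeletal muscle, with 28.1 per kilobase and pooled means of 10.2 and 9.12. Its liver counterpart Cox7a2 had 485 per kilobase and pooled means of 365 and 390. Cox7a2l, a related protein that joins complexes into supercomplexes, had 450 per kilobase and pooled means of 516 and 567. The range over these 3 genes was 17.2-fold per kilobase, and 34.4-fold per length of coding sequence. No value was used here for the paralogs Cox4i2, Cox6a2, Cox6b2, Cox7b2, Cox8b, Cox8c and Ndufa4l2, so Cox6a1, at 239 and 234 normalized counts, could not be compared with its muscle form.

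Complex V spanned 39.1-fold. Atp5b, the catalytic beta subunit, had the highest pooled means of any member, 4077 and 4086, and 2128 per kilobase. Atp5a1, the alpha subunit that alternates with beta in the head, had pooled means of 3774 and 3879 and 1411 per kilobase. The subunits of the central stalk were lower, with 373 per kilobase for Atp5d (delta), 358 for Atp5c1 (gamma) and 96.6 for Atp5e (epsilon).

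The lowest was Atp5k, the small subunit e of the membrane part, with 54.4 per kilobase and pooled means of 20.2 and 22.3. Atp5e had pooled means of 40.7 and 42.1, and Atp5j2, subunit f, of 92.1 and 101. Atp5l and Atp5h, subunits g and d, stood at 1130 and 828 per kilobase. The genes of the membrane part and stalk therefore did not share a level, and both Atp5k and Atp5l have near-identical copies elsewhere in the genome.

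**Figure D2:**
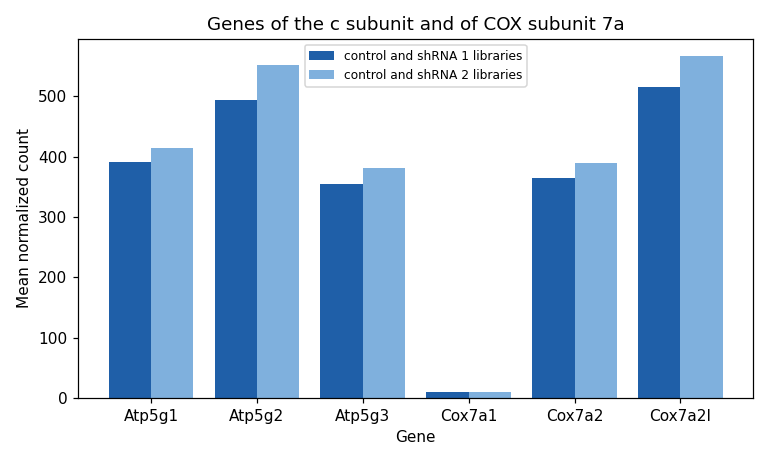
Mean normalized count of the 3 c subunit genes and of the 3 genes of the subunit VIIa family, in the tables of control with shRNA 1 and of control with shRNA 2. The c subunit genes lie between 354 and 553, whereas Cox7a1 lies near 10 beside 365 and 516 for Cox7a2 and Cox7a2l in the shRNA 1 table; bars are not scaled for length.

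The 7 prefix-sharing genes were lower. Cox4nb had 42.0 per kilobase and pooled means of 207 and 234. The assembly factors Ndufaf1, Ndufaf3 and Ndufaf4 had pooled means of 87.0, 43.2 and 66.2 in the shRNA 1 table, and Ndufaf2 had the lowest of any member, 4.55 and 5.68. Atp5sl and Atp5s had 86.5 and 21.0.

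The tables were normalized separately, so the shRNA 1 means were multiplied by 1.05, the factor that brings the median ratio of all genes to 1, before both were set against each other. If both means contain the same 3 control libraries, as assumed, their ratio shows a difference between the hairpins in damped form, and otherwise it can also hold differences between control libraries. A member was counted when the rescaled means differed by more than 1.2-fold and both means were at least 10, which held for 82 of the 84 genes (not for Ndufaf2 and Cox7a1). One member was higher in the shRNA 1 table, where 6.82% of all genes were, and 2 were lower, where 6.18% were. The log2 ratios of the members had a median of 0.01 and an SD over genes of 0.10, against 0.20 over all 11451 genes. Among the genes whose means reached 100 in each table, the SD was 0.08 over 65 members and 0.15 over all genes. The ratios carry no error over libraries and no test. Of the hepatocyte markers, Alb passed the limit upwards, with 2151 and 1814 normalized counts, and Serpina1a downwards, with 316 and 426. Without rescaling, the difference of Alb was under 1.2-fold in the same direction. The part of these markers in the ratios of the members was not tested.

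Ndufaf4, an assembly factor of complex I, had 66.2 normalized counts in the shRNA 1 table and 56.6 in the shRNA 2 table, a log2 ratio of 0.30 after rescaling. If the control libraries are the same and cancel exactly, the means imply that cells with shRNA 1 had 25.9 normalized counts more than cells with shRNA 2, on the scale of the shRNA 2 table. Without rescaling, the difference of Ndufaf4 was under 1.2-fold in the same direction.

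Uqcrh, the hinge protein that helps cytochrome c dock on complex III, had 224 and 284, a log2 ratio of -0.27. Under the same condition, the implied difference was -96.4 normalized counts for shRNA 1 minus shRNA 2. Ndufb7, a complex I subunit on the intermembrane side, had 73.8 and 93.5, also a log2 ratio of -0.27. Both ratios lay just past the limit, and complexes I and III also held members above the median of all genes.

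The next members in order lay inside the limit. On the higher side were Ndufb6 (log2 ratio 0.21), the acyl carrier protein Ndufab1 (0.19), Ndufa13 (0.16) and Uqcrc1 (0.14). On the lower side were Ndufb2 (-0.18), Sdhb (-0.15) and Uqcrc2 (-0.13). The core proteins of complex III thus lay on opposite sides of the median of all genes. Uqcrc1 had pooled means of 782 and 744, and Uqcrc2 of 885 and 1017, and their order between the tables was opposite also without rescaling.

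By complex, the median log2 ratio was 0.02 for complex I, -0.07 for complex II, 0.04 for complex III, 0.01 for complex IV and -0.02 for complex V. Of the 13 Ndufa genes 10 had a ratio above the median of all genes, and of the 8 Ndufs genes 2 had. Of the 10 Ndufb genes 6 had, and of the 3 Ndufv genes 1 had. Without rescaling, 20 of the 82 members were higher in the shRNA 1 table, against 3611 of all 11451 genes. These were 8 of the Ndufa genes, 3 of the Ndufb, 0 of the Ndufs and 0 of the Ndufv genes, beside genes of the other groups. The middle 50% of all genes lay between log2 ratios of -0.10 and 0.10, a range that holds the median of every complex. That range is of single genes, and medians over several genes vary less, so it is no test of the complexes.

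**Figure D3:**
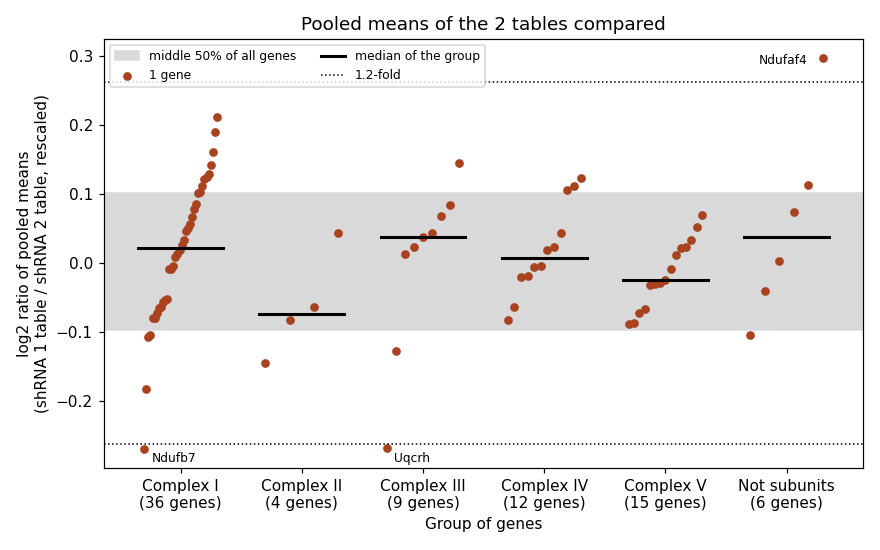
Log2 ratio of the pooled mean in the shRNA 1 table to that in the shRNA 2 table, after rescaling, for the 82 members with both means at 10 or more, by complex. Points are genes, bars medians, the grey band the middle 50% of all genes and dotted lines the 1.2-fold limit; Ndufaf4 lies above it and Ndufb7 and Uqcrh below it.

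Other genes of the pathway were taken from lists. No value was used for any of the 13 subunits coded in mitochondrial DNA. Of 23 further assembly factors, 22 had a value, and of the 21 with means of at least 10, 1 passed the limit upwards and 0 downwards. Over all genes, 6.82% passed it upwards and 6.18% downwards, shares at which lists this short hold few such genes. The assembly factor past the limit was Surf1, needed to build complex IV, with 141 and 119 normalized counts and a log2 ratio of 0.32. Without rescaling, the difference of Surf1 was under 1.2-fold in the same direction. Cycs, coding for cytochrome c, had 358 and 375. Atpif1, the inhibitor of ATP hydrolysis by complex V, had 168 and 217, a log2 ratio of -0.30 and past the limit.

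Of 12 regulators of mitochondrial genes, all had a value and 0 passed the limit. The shares of all genes past it were 6.82% upwards and 6.18% downwards. Nrf1, which binds promoters of many subunit genes, had 275 and 307, and Gabpa, an ETS factor with the same role, had 322 and 341. Esrra, an orphan nuclear receptor, had 633 and 729, and its coactivator Ppargc1a had 56.1 and 67.5. All 6 enzymes of the citric acid cycle on the list had a value between 407 and 1518 normalized counts in the shRNA 1 table, and 0 passed the limit. Citrate synthase, Cs, was the highest of them, with 1518 and 1815.

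The member genes were short. Their median longest coding transcript measured 967 bases against 2941 over all protein-coding genes, with a coding sequence of 446 against 1329 bases, 4 against 9 exons and a gene span of 7.50 against 22.2 kb. Their GC content was close to that of all genes, with medians of 50.8% and 50.3%. Chromosomes 7 and 13 carried the most members, 7 each.

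Near-identical copies were common. In the mm9 sequence, 23 of the 84 members (27.4%) had a stretch of at least 100 coding bases that matched another place with at least 95% identity, against 14.5% of all protein-coding genes and 26.7% of those with at most 600 coding bases. Complex V held 8 of them among its 15 genes, complex I 8 of 36, complex IV 5 of 13, complex III 2 of 9 and complex II 0 of 4. Atp5l had 8 such places, Cox7c, a small complex IV subunit, 5 and Atp5h 4. Members with a copy had a median of 358 per kilobase, and those without one of 212. The 2 sets also differed in composition. The 7 genes that are not subunits, with a median of 36.2 per kilobase, all lacked a copy. The median longest coding transcript measured 763 bases with a copy and 1079 without. The part of these differences was not tested, nor was how many reads the copies took from the members that have them.

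Many members start beside another gene on the opposite strand. A protein-coding gene that starts within 1000 bases and points away was found for 23 members (27.4%), against 11.1% of all protein-coding genes and 15.8% of those with at most 600 coding bases. Cox4i1 and Cox4nb, both members, form such a pair on chromosome 8 with starts 178 bases apart (mm9; Cox4i1 at 123192190 to 123198109 on the plus strand and Cox4nb at 123177814 to 123192012 on the minus strand). They differed in level, with 1860 and 42.0 per kilobase. The start of Ndufs1 lies 3 bases from that of Eef1b2, a translation elongation factor, and the start of Ndufa7 29 bases from that of Rps28, a ribosomal protein. In complex II, Sdha has Ccdc127 and Sdhd has Timm8b as such a neighbour, at 29 and 52 bases.

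Promoters were read from RefSeq (build GRCm38.p6), as the 250 bases before and the 50 bases after each annotated start, and 71 of the 84 members matched an entry. Those without one included Atp5a1, Cox4i1, Cox4nb, Cox6c, Cyc1, Ndufa2, Ndufb9, Ndufs1, Sdhc, Uqcrb, Uqcrc2 and Uqcrq. The stretches printed are those of 1 gene for each group of members in which the NRF1 core letters GCATGCGC lay before the start, with the letters and any overlapping match on the other strand in capitals. All are written 5′ to 3′ on the strand of the gene.
Ndufa6 (complex I, chr15:82354347-82354394, minus strand): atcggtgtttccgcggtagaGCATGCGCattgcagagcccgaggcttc
Sdhb (complex II, chr4:140961197-140961244, plus strand): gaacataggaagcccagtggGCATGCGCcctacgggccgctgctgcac
Cox6a1 (complex IV, chr5:115349091-115349140, minus strand): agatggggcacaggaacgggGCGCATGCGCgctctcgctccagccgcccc
Atp5g2 (complex V, chr15:102671060-102671109, minus strand): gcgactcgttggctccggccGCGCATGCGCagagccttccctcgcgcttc
Ndufaf4 (assembly factor, chr4:24897950-24897999, plus strand): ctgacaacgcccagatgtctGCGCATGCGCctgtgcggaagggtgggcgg

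In these genes the first capital lies 83, 54, 160, 40 and 111 bases before the start, in the order printed. The NRF1 letters were found in 11 of the 71 member genes (15.5%), in 5.91% of the 9756 protein-coding genes of both tables that matched an entry, and in 2.71% of all 32851 promoters. The other genes were Atp5k, Atp5l, Ndufa8, Ndufa11, Uqcr11 and Uqcrc1. The ESRRA letters CAAGGTCA were found in 4 member genes (5.63%), Atp5g3, Atp5l, Ndufs5 and Sdhd, against 1.26% of the listed genes and 1.56% of all promoters. Atp5l held both.

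The ETS letters CCGGAAG were found in 23.9% of the member genes, in 20.2% of the listed genes and in 8.86% of all promoters. The YY1 letters ATGGCGG were found in 15.5%, 9.38% and 4.05%, but in 7.04% of the member genes and 4.58% of the listed genes when only the 250 bases before the start were searched. The letters CCAAT were found in 45.1%, 43.7% and 37.4%. The SP1 letters GGGCGG went the other way against the listed genes, with 43.7% of the member genes, 68.2% of the listed genes and 35.7% of all promoters. The TATA letters TATAAA were found in 7.04%, 9.07% and 13.6%. Both strands were searched in every case, and none of these motifs contains another. A gene was counted when any of its promoters held the letters, and 65 of the 71 members had a single promoter. The number of promoters per listed gene was not compared, and its part in the shares was not tested. A match describes letters only, and binding was not measured.

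**Figure D4:**
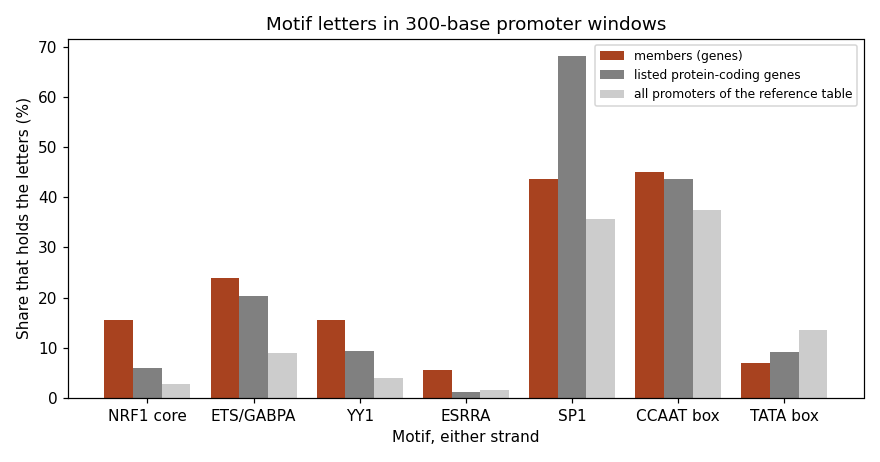
Share of genes or promoters, in percent, that hold the letters of each motif on either strand of the 300-base window, for 71 members, 9756 listed protein-coding genes and all 32851 promoters of the reference table. Members stand above the listed genes for the NRF1 and ESRRA letters (15.5% against 5.91% and 5.63% against 1.26%) and below them for SP1 (43.7% against 68.2%). A gene is counted when any of its promoters holds the letters, and promoters per listed gene were not compared.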

How the data were processed

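RNA from 9 AML12 libraries in 3 groups was sequenced from strand-specific libraries. The authors used TopHat2 for mapping to mm9, retained only reads with a unique position, counted GENCODE M1 genes with HTSeq and normalized counts with DESeq2 1.8.2 in each comparison. The deposited signal used here is the mean normalized count over the libraries of a table, taken to be 6. Columns with fold changes, standard errors and p-values of the authors' comparisons against control were not used, so read depth per library is not known here and no test was possible. Members and lists were chosen with earlier results of these data known.

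Python 3.11.15, pandas 2.3.3 and BLAST 2.17.0 were used. Levels were divided by transcript length. Ratios between tables were rescaled by the median ratio and limited to means of at least 10. The rescaling step was checked on simulated means, and the ratios themselves have no statistical test. Copies were coding stretches found elsewhere in NCBIM37 (the sequence of mm9), merged within 10 kb. Motifs were exact matches. Named genes were the highest and lowest of each complex, paralogs, the 5 highest and 5 lowest ratios, members with a mean under 100, complex II, catalytic cores and genes that are no subunits. Genes named for copies, neighbours, motifs, a second gene model or a high level (among them Ndufa4, Cox7b, Atp5d, Atp5h and Atp5l) were chosen after their values were seen. Some items are not reported here.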

Additional observations from a re-analysis of the deposited data

How the results depend on the processing

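No paired analysis was possible because the means pool the libraries and carry no replicate. Leaving out a library was likewise not possible. Of 35 alternatives, 22 moved a result by less than 1.2-fold (counts by at most 1.5-fold). The count of members past the fold limit was 3, and was 10 at a limit of 1.1 (with 36.0% of all genes past it), 0 at 1.5 (1.55%) and 1 at a minimum mean of 100 (7.41%). With the union of exons as length, the median per kilobase of complexes II, III and V was 184, 264 and 222, and without members that have copies that of complex IV was 817. With the coding sequence as length, an alternative chosen after seeing the data, the range over paralogs was 1.35-fold for the c subunit and 34.4-fold for subunit VIIa. In the 250 bases before the start alone, the share of members was 12.7% for NRF1, 18.3% for ETS, 7.04% for YY1 and 4.23% for ESRRA, against 4.97%, 15.8%, 4.58% and 1.13% of the listed genes. A shorter window or a higher limit can only lower a count by its construction. Precision is limited by the pooled means, which hide the spread between libraries.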
